A study of Homo sapiens with 2 samples.

Results

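PC9 cells assigned to 1 of 6 sgRNAs against ATF4 were set directly against PC9 cells assigned to 1 of 6 sgRNAs against CTCF, both taken from a single pooled CRISPR screen read by single-cell RNA sequencing. Barcodes needed 1000 or more gene UMIs (unique molecular identifiers, each standing for 1 captured RNA molecule), 500 or more genes and a mitochondrial share of no more than 20%. A kept cell took the identity of its top sgRNA if 5 or more UMIs, making up 80% or more of all sgRNA UMIs in the cell, came from it. This gave 859 ATF4 sgRNA cells and 1182 CTCF sgRNA cells, of 5556 assigned cells among 10142 kept cells. Another 700 cells carried 4 non-targeting sgRNAs. They had no part in the contrast and their values are given beside it. The labels describe a library with a pair of sgRNAs on each vector, whereas 2.05% of cells with an ATF4 sgRNA at 5 or more UMIs held another ATF4 sgRNA at that level, and 3.82% did so for CTCF. Each sgRNA was treated as delivered on its own and as a separate unit of every test, and whether sgRNAs share vectors could not be settled.

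PC9 is a human lung adenocarcinoma line whose growth depends on mutant EGFR, a growth factor receptor. Per the labels, the cells received the lentiviral sgRNA pool in medium with polybrene (8 ug/ml) so that about 40% were infected, and infected cells were selected with puromycin at 1 ug/ml from day 2 to day 6. All 3 groups share this treatment, the same pool and the same culture, and differ by the target of the sgRNA. The labels name day 7 for an initial harvest and day 8 for the experiment, and they use the words knockout, dCas9 and knockdown, so neither the harvest day nor the kind of perturbation could be settled.

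ATF4 is a bZIP transcription factor whose protein is made when translation initiation is slowed by amino acid shortage, misfolded proteins in the endoplasmic reticulum or other stresses, a programme called the integrated stress response. It pairs with C/EBP proteins on C/EBP-ATF response elements and turns on genes for amino acid synthesis and uptake, for charging of tRNAs and for feedback on the stress response itself. CTCF is a zinc finger protein that binds a long DNA motif, stops the cohesin ring as it extrudes chromatin loops and so marks the borders of domains. Its loss is known to let some genes escape the limits of their domain, while many others keep their level.

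The 6 ATF4 sgRNAs were in 49 to 256 cells and summed to between 628639 and 3371762 gene UMIs, and the 6 CTCF sgRNAs were in 48 to 344 cells and summed to between 624734 and 4488175 gene UMIs. Per sgRNA, the median cell held 12826 ± 592 gene UMIs with ATF4 sgRNAs and 12053 ± 561 with CTCF sgRNAs (SD, n = 6 each; two-sided exact permutation test over sgRNAs p = 0.0498, Benjamini-Hochberg adjusted p = 0.199 over 8 such values). Mitochondrial UMIs made up 10.6 ± 0.728% and 10.8 ± 0.309% in ATF4 and CTCF sgRNA cells (exact permutation p = 0.615), and 58.3 ± 3.44% and 60.5 ± 7.39% of the cells were scored as G1 (exact permutation p = 0.541). CTCF sgRNA3, with 48 cells, stood apart from the other 5 CTCF sgRNAs: only 46.7% of its cells were scored as G1, against 59.9 to 67.1% for the others, and the difference in mean G1 share was -2.25 percentage points with it and -5.02 without it. No test is given for the second value, since the sgRNA was set apart by the same share. Some of the results that lean on this sgRNA are given with and without it. Further fits used G1-scored or other cells (by scores from unthinned counts), cells with at most 10% mitochondrial UMIs, cells thinned to 5000 UMIs, or a stricter sgRNA rule of at least 10 UMIs and 90%. With 17 G1-scored cells CTCF sgRNA3 was left out of the G1 fit, and with 12 cells ATF4 sgRNA2 was left out under the stricter rule, since each sgRNA needed 20. All 6 epithelial markers had UMIs, with a sum of 10077 to 10771 CPM in ATF4 sgRNAs and 9021 to 11516 CPM in CTCF sgRNAs, where CPM are counts of a gene scaled to 1000000 gene UMIs of the sgRNA. Of 8 blood cell markers, 6 had a UMI and their sum stayed under 5 CPM in every sgRNA, with CD3E and HBB at 0, and 5 of 6 fibroblast and 4 of 5 endothelial markers were at 0.

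The ATF4 transcript was lower in ATF4 sgRNA cells, and the CTCF transcript did not pass the test between the 2 groups. ATF4 (ENSG00000128272, GRCh38.p14 chr22:39520559-39522686) stood at 266, 274, 247, 332, 258 and 186 CPM for ATF4 sgRNA1 to sgRNA6, against 405, 351, 329.7, 357, 382 and 396 CPM for CTCF sgRNA1 to sgRNA6. ATF4 sgRNA6 gave the lowest level and ATF4 sgRNA4 the highest, which lay just above the lowest CTCF sgRNA, so the groups overlapped by these 2 sgRNAs. The mean was 260.5 ± 47.0 CPM with ATF4 sgRNAs and 370.0 ± 28.8 CPM with CTCF sgRNAs (SD, n = 6 each), 1.47-fold lower in the fit, with a log2 fold change of -0.55 ± 0.063 (SE; edgeR quasi-likelihood test, Benjamini-Hochberg (BH) adjusted p = 1.12e-09). Non-targeting sgRNAs lay between 343 and 376 CPM.

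CTCF (ENSG00000102974, chr16:67562526-67639177) averaged 38.8 ± 7.51 CPM in ATF4 sgRNA cells and 34.7 ± 7.68 CPM in CTCF sgRNA cells (SD, n = 6 each), with a log2 fold change of 0.02 ± 0.103 (edgeR, BH-adjusted p = 0.959). The lowest of the 6 CTCF sgRNAs, CTCF sgRNA3 at 20.8 CPM, lay under every ATF4 sgRNA (30.2 to 47.95 CPM) and under every non-targeting sgRNA (35.6 to 47.6 CPM). With 48 cells and 624734 gene UMIs it was the smallest of the 6, so this level rests on few CTCF UMIs. Whether it differs from the other sgRNAs was not tested. The reads come from the 3' ends of transcripts and do not read the targeted DNA, so these levels do not check whether a site was edited. Fewer transcripts in every cell and a loss in some of the cells cannot be told apart in these sums.

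**Figure D1:**
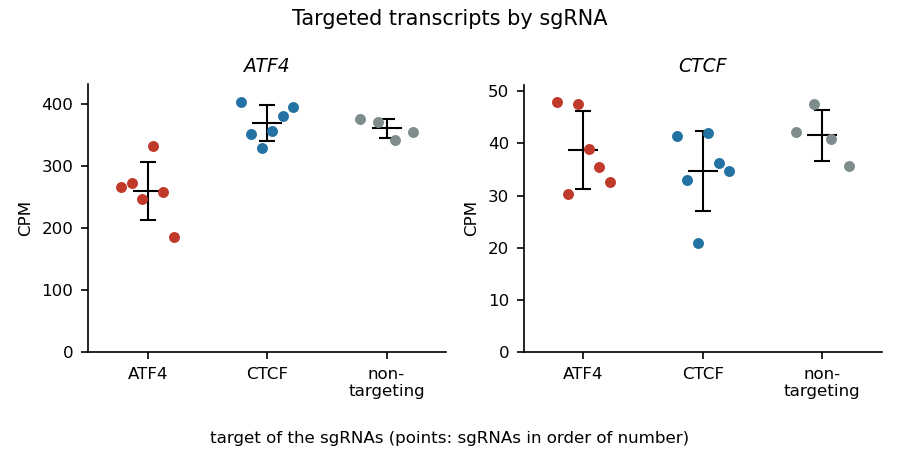
CPM of the ATF4 transcript (left panel) and the CTCF transcript (right panel) for each of the 6 ATF4, 6 CTCF and 4 non-targeting sgRNAs, with the mean and SD of each group. ATF4 ranged from 186 to 332 CPM with ATF4 sgRNAs and from 329.7 to 405 CPM with CTCF sgRNAs, while the CTCF panel shows overlapping groups with CTCF sgRNA3 lowest at 20.8 CPM.

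Of the 11570 genes tested, 681 (5.89%) differed between ATF4 and CTCF sgRNA cells at an edgeR, BH-adjusted p under 0.05. In ATF4 sgRNA cells 314 (2.71%) were higher and 367 (3.17%) were lower. Changes were modest in size: 96 of the lower and 28 of the higher genes reached 1.5-fold. For 636 of the 681, all 6 ATF4 sgRNAs lay on the same side of the CTCF mean. The 6 and 6 values did not overlap for 264 of the 681, and for 364 (3.15%) of all genes tested. The median log2 fold change over all genes tested was -0.01, with 5932 genes under 0 and 5638 over 0, which is the background for each gene group that follows. Where 0 members of a group are given as higher by edgeR, DESeq2 also called 0, and at an unadjusted p under 0.05 there were 1 for asparagine, cysteine, proline and aspartate enzymes, 2 for tRNA synthetases, 2 for endoplasmic reticulum genes and 0 for the others. The sgRNAs came from 1 pool and 1 culture, so these p-values measure the spread between sgRNAs and not between cultures.

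**Figure D2:**
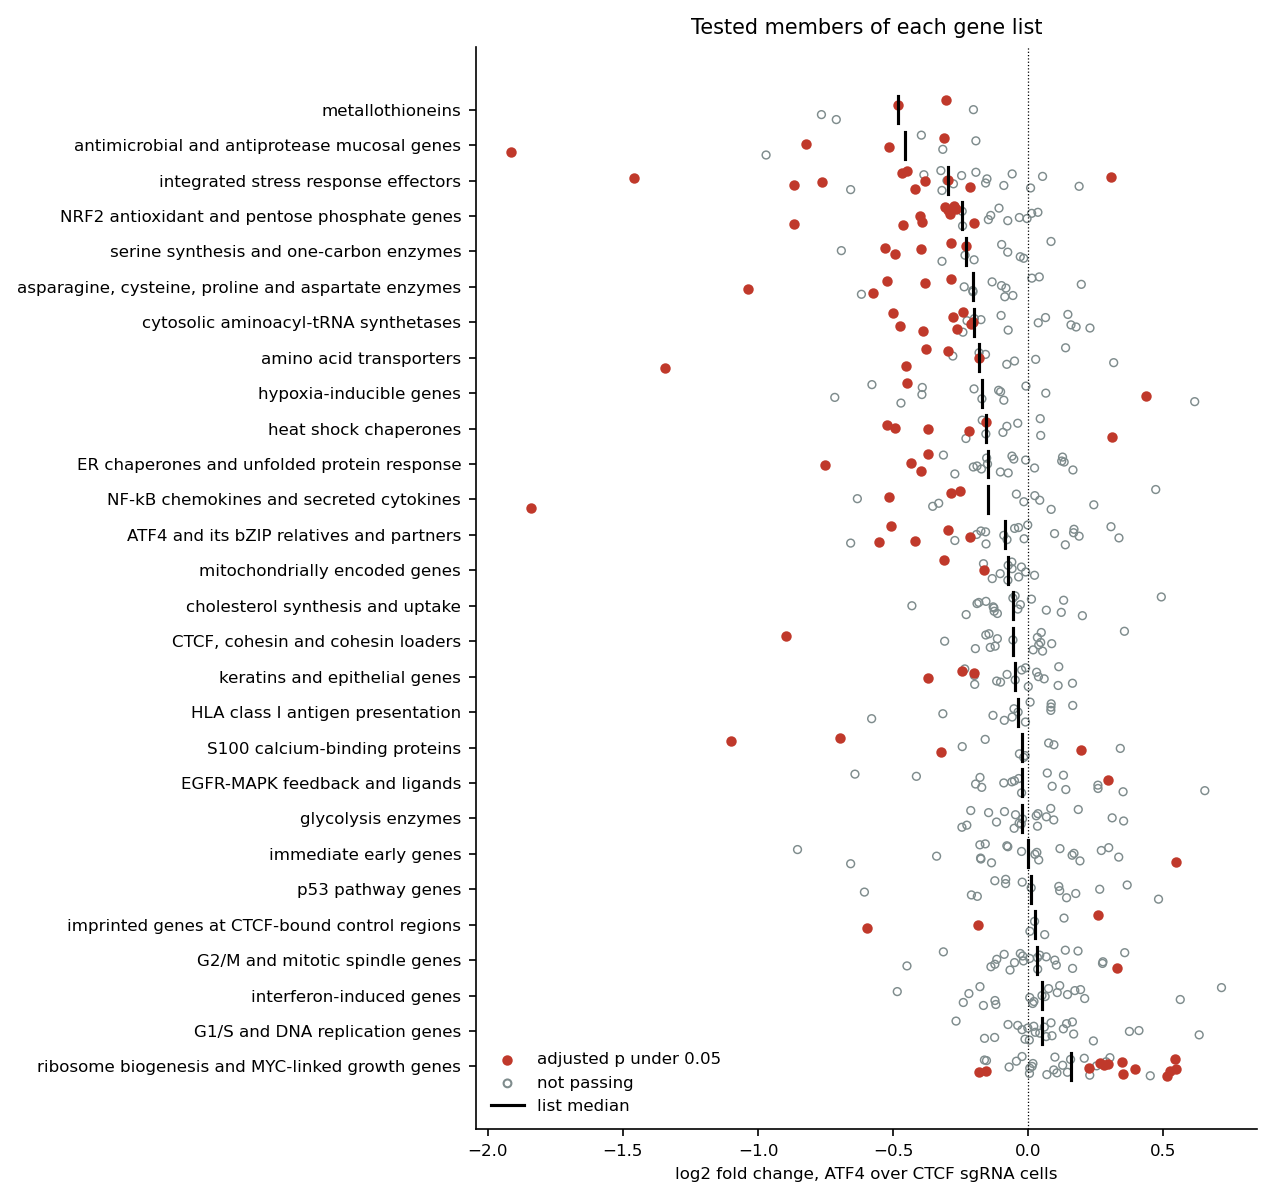
Log2 fold change, ATF4 over CTCF sgRNA cells, of every tested member of 28 gene groups; filled points passed an edgeR, BH-adjusted p of 0.05 and bars are group medians. Metallothioneins (-0.48), mucosal antimicrobial genes (-0.46) and integrated stress response effectors (-0.30) have the lowest medians and ribosome biogenesis genes (0.16) the highest.

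Serine synthesis and one-carbon enzymes were lower in ATF4 sgRNA cells. These enzymes branch serine off glycolysis and pass its carbon to folate for nucleotide synthesis. Of 14 tested members, 5 fell and 0 rose (background 3.17% and 2.71%), 13 had a log2 fold change under 0, and the median was -0.23. PSAT1, the phosphoserine aminotransferase, ranged from 149.8 to 194 CPM with a median of 167 CPM over ATF4 sgRNAs, against 221 to 249.99 CPM with a median of 237 CPM over CTCF sgRNAs. The groups did not overlap. Its log2 fold change was -0.53 ± 0.053 (SE; edgeR, BH-adjusted p = 1.66e-11).

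PHGDH, the dehydrogenase that opens the serine pathway, averaged 419 ± 33.3 CPM in ATF4 sgRNA cells and 532 ± 69.3 CPM in CTCF sgRNA cells (SD, n = 6 each; log2 -0.40 ± 0.051, edgeR, BH-adjusted p = 3.34e-08). MTHFD2, the mitochondrial folate dehydrogenase of proliferating cells, averaged 148.5 ± 10.7 CPM and 202 ± 28.8 CPM in ATF4 and CTCF sgRNA cells (log2 -0.49 ± 0.062, edgeR, BH-adjusted p = 1.80e-08). In both genes the overlap came from CTCF sgRNA3, and without that sgRNA the log2 fold changes were -0.44 and -0.52. SHMT2, the mitochondrial enzyme that splits serine to glycine, fell by 0.29 on the log2 scale (edgeR, BH-adjusted p = 0.00770), a call that did not pass in G1-scored cells (-0.30, BH-adjusted p = 0.153) or under the stricter sgRNA rule (-0.28, BH-adjusted p = 0.0558). PSPH, the phosphatase that ends the pathway, fell by 0.23 (edgeR, BH-adjusted p = 0.0151), and it did not pass without ATF4 sgRNA3, with at most 10% mitochondrial UMIs, in cells not scored as G1 or after thinning. The summed level of the 14 genes was 1277 to 1457 CPM over ATF4 sgRNAs and 1445 to 1763 CPM over CTCF sgRNAs, 1681 to 1763 CPM without CTCF sgRNA3, when the groups no longer overlapped.

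Enzymes around asparagine, cysteine, proline and aspartate were lower as well, with 5 of 17 tested members down, 0 up and a median log2 fold change of -0.20. CTH makes cysteine from cystathionine in the transsulfuration route. It stood at 5.00 to 8.90 CPM (median 7.66) over ATF4 sgRNAs and at 1.60 to 20.3 CPM (median 13.2) over CTCF sgRNAs. All CTCF sgRNAs but sgRNA3, which had the 1.60 CPM, lay above all ATF4 sgRNAs. Its log2 fold change was -1.04 ± 0.204 (edgeR, BH-adjusted p = 0.000307), -1.10 without CTCF sgRNA3, -1.49 in cells not scored as G1 (BH-adjusted p = 1.47e-05) and -0.40 in G1-scored cells (BH-adjusted p = 0.596).

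PCK2, the mitochondrial PEP carboxykinase, averaged 81.2 ± 12.5 CPM in ATF4 sgRNA cells and 114 ± 14.2 CPM in CTCF sgRNA cells (SD, n = 6 each; log2 -0.52 ± 0.073, edgeR, BH-adjusted p = 2.32e-07). ASS1, which joins aspartate and citrulline on the way to arginine, averaged 69.0 ± 11.03 CPM and 102 ± 12.1 CPM in ATF4 and CTCF sgRNA cells (log2 -0.57 ± 0.078, edgeR, BH-adjusted p = 1.37e-07). GPT2 and PYCR1 fell by 0.38 and 0.29 on the log2 scale (edgeR, BH-adjusted p = 0.0199 and 0.0117). The GPT2 call was lost without any 1 of 4 single sgRNAs, and the PYCR1 call without CTCF sgRNA4. Neither passed in cells not scored as G1, with at most 10% mitochondrial UMIs, after thinning or under the stricter rule. ASNS, the asparagine synthetase that is a textbook ATF4 target, was near the floor of these sums, at 2.96 ± 0.960 CPM and 4.96 ± 1.57 CPM in ATF4 and CTCF sgRNA cells, and did not pass (log2 -0.62 ± 0.281, edgeR, BH-adjusted p = 0.215). It is named here after its values were seen.

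Transporters of amino acids and enzymes of tRNA charging were lower in part. Of 13 tested amino acid transporters, 5 fell and 0 rose, with a median log2 fold change of -0.18. SLC1A5, the glutamine importer, averaged 68.5 ± 8.49 CPM in ATF4 sgRNA cells and 88.3 ± 9.17 CPM in CTCF sgRNA cells (SD, n = 6 each; log2 -0.45 ± 0.075, edgeR, BH-adjusted p = 1.72e-05). It was the 1 transporter of the 5 whose call did not depend on any single sgRNA. It did not pass when each cell was thinned to 5000 UMIs (-0.31, BH-adjusted p = 0.137). SLC7A11, the cystine importer, fell by 0.30 (edgeR, BH-adjusted p = 0.00776) and SLC7A5, the importer of large neutral amino acids, by 0.38 (edgeR, BH-adjusted p = 0.0179), and neither passed without ATF4 sgRNA1, under the stricter sgRNA rule or in G1-scored cells. SLC1A4, an importer of alanine, serine and cysteine, had 0.650 to 2.97 CPM over ATF4 sgRNAs and 2.64 to 7.07 CPM over CTCF sgRNAs (log2 -1.35 ± 0.385, edgeR, BH-adjusted p = 0.0206). Its call was lost without any 1 of 4 single sgRNAs (ATF4 sgRNA1, sgRNA3 or sgRNA6, or CTCF sgRNA2, -1.11 to -1.24), in cells not scored as G1 and under the stricter rule. SLC3A2, the heavy chain that carries several of these transporters to the membrane, fell by 0.18 (edgeR, BH-adjusted p = 0.0339) and was lost without any 1 of 6 single sgRNAs.

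Of 20 cytosolic aminoacyl-tRNA synthetases, which load tRNAs with their amino acids, 8 fell and 0 rose, with a median of -0.20. GARS, the glycine enzyme, lay at 107 to 156 CPM (median 136) over ATF4 sgRNAs and at 179 to 194 CPM (median 188) over CTCF sgRNAs. The groups were apart, and the log2 fold change was -0.47 ± 0.062 (edgeR, BH-adjusted p = 5.28e-08). CARS, EPRS and SARS, for cysteine, for glutamate with proline and for serine, fell by 0.39, 0.26 and 0.28 on the log2 scale (edgeR, BH-adjusted p = 4.29e-05, 0.000220 and 0.000816). In G1-scored cells 2 of the 8 passed, GARS and SARS, and CARS and EPRS did not (BH-adjusted p = 0.115 and 0.114). CARS also did not pass after thinning (BH-adjusted p = 0.0524). WARS, the tryptophan enzyme, fell by 0.50 (edgeR, BH-adjusted p = 0.00878). It did not pass in either cell cycle fit, with at most 10% mitochondrial UMIs or after thinning. The calls of IARS, LARS and YARS were each lost without at least 1 single sgRNA.

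Among effectors of the integrated stress response, 9 of 25 tested members fell, 1 rose and the median log2 fold change was -0.30. NUPR1, a small stress-induced chromatin protein, had 1.59 to 23.3 CPM (median 13.9) over ATF4 sgRNAs and 32.8 to 70.4 CPM (median 39.0) over CTCF sgRNAs. Every ATF4 sgRNA was below every CTCF sgRNA, with a log2 fold change of -1.46 ± 0.178 (edgeR, BH-adjusted p = 7.16e-09; -1.40 without CTCF sgRNA3, which held the highest value). DDIT4, the inhibitor of mTORC1 known as REDD1, had 47.95 to 94.9 CPM (median 76.3) over ATF4 sgRNAs and 86.4 to 165 CPM (median 125.5) over CTCF sgRNAs. The ranges overlapped at their edges, and the log2 fold change was -0.76 ± 0.089 (edgeR, BH-adjusted p = 2.12e-09).

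EIF4EBP1, the brake on cap-dependent translation, averaged 330.1 ± 18.8 CPM in ATF4 sgRNA cells and 419 ± 18.9 CPM in CTCF sgRNA cells (SD, n = 6 each), with no overlap (log2 -0.38 ± 0.049, edgeR, BH-adjusted p = 2.35e-08). CHAC1, which degrades glutathione, averaged 8.70 ± 3.79 CPM and 13.8 ± 1.15 CPM in ATF4 and CTCF sgRNA cells (log2 -0.87 ± 0.185, edgeR, BH-adjusted p = 0.00103). It did not pass in G1-scored cells (-0.47, BH-adjusted p = 0.508), at a mitochondrial share of no more than 10% (-0.56, BH-adjusted p = 0.258) or after thinning (-0.79, BH-adjusted p = 0.148). STC2, VEGFA, ATF5, JDP2 and CEBPB, a secreted glycoprotein, the vascular growth factor and 3 bZIP factors, fell by 0.47, 0.45, 0.42, 0.30 and 0.22 on the log2 scale, with edgeR, BH-adjusted p between 0.00198 and 0.0109, and none of them passed in G1-scored cells. After thinning STC2, ATF5 and JDP2 did not pass, with at most 10% mitochondrial UMIs VEGFA, ATF5 and CEBPB did not, and under the stricter rule JDP2 and CEBPB did not.

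Not every gene of the programme moved this way. PPP1R15A, the phosphatase subunit GADD34 that ends the response, was higher, at 95.6 ± 16.5 CPM in ATF4 sgRNA cells and 70.6 ± 10.95 CPM in CTCF sgRNA cells (log2 0.31 ± 0.088, edgeR, BH-adjusted p = 0.0211), and its call was lost without ATF4 sgRNA1, without ATF4 sgRNA5 or without CTCF sgRNA5, in both cell cycle fits, with at most 10% mitochondrial UMIs and under the stricter rule. TRIB3, the pseudokinase that feeds back on ATF4, averaged 141 ± 24.1 CPM and 145 ± 28.2 CPM in ATF4 and CTCF sgRNA cells and did not pass (log2 -0.19 ± 0.079, edgeR, BH-adjusted p = 0.151). It was lowest in CTCF sgRNA3, at 89.6 CPM, and the log2 fold change without that sgRNA was -0.24. No test is given for this value, since that sgRNA stood apart from the other CTCF sgRNAs in TRIB3 itself. TRIB3 is named after its values were seen.

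The 250 bases upstream of the start of 4 genes that were lower in ATF4 sgRNA cells are printed as examples. Each holds 1 match to the C/EBP-ATF element, searched as TGATGNAA on both strands. In the same window a match also lay before GARS, IARS, JDP2 and SLC1A5, which were lower too. FAM24B, which was higher, and ASNS, which did not pass, held one as well. In the 4 printed sequences the match is in capitals, lies on the minus strand and so reads as the reverse complement. The sequences are the RefSeq promoters of build GRCh38.p14, all on the plus strand, at chr3:48223245-48223494 for CAMP, chr4:6693628-6693877 for S100P, chr15:40953221-40953470 for CHAC1 and chr16:56931892-56932141 for HERPUD1.
CAMP: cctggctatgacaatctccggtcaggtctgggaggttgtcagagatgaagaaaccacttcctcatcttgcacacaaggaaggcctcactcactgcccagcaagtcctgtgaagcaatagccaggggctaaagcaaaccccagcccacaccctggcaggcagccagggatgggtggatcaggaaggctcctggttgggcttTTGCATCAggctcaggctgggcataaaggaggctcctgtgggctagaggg
S100P: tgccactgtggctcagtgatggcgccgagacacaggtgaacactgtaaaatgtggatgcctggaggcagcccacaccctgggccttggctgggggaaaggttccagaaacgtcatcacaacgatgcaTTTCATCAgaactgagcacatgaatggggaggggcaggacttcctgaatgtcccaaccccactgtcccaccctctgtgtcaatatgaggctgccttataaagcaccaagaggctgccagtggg
CHAC1: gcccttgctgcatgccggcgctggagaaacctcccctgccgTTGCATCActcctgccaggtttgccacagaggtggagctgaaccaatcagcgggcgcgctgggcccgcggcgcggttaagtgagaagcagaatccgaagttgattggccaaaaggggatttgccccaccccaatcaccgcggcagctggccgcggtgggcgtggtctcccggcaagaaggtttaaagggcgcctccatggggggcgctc
HERPUD1: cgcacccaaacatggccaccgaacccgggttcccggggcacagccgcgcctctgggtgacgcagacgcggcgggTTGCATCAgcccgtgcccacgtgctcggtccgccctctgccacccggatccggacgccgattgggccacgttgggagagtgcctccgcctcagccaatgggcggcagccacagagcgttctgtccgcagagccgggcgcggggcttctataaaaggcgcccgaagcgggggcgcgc
The capitals begin 50, 123, 209 and 176 bases before the start of CAMP, S100P, CHAC1 and HERPUD1. The element was in 17 of 413 promoters of genes lower in ATF4 sgRNA cells (4.12%), in 8 of 348 promoters of higher genes (2.30%), in 1.60% of the promoters of all genes tested and in 3.14% of all 35116 promoters. A match is a description of letters and not a binding site. PSAT1 and DDIT4 held none in these 250 bases, which says only that these letters are not in this window.

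Genes of the endoplasmic reticulum and cytosolic chaperones were lower in part. Of 21 tested endoplasmic reticulum genes, 4 fell and 0 rose, with a median of -0.15. HERPUD1, a membrane protein of the degradation pathway whose promoter is shown above, lay at 44.5 to 68.3 CPM (median 52.4) over ATF4 sgRNAs and at 87.6 to 110.4 CPM (median 91.1) over CTCF sgRNAs. There was no overlap, and the log2 fold change was -0.75 ± 0.084 (edgeR, BH-adjusted p = 6.76e-10). XBP1, the transcription factor of the unfolded protein response, averaged 259 ± 23.5 CPM and 329 ± 14.8 CPM in ATF4 and CTCF sgRNA cells, also apart (log2 -0.37 ± 0.052, edgeR, BH-adjusted p = 2.83e-07). HSPA5, the chaperone BiP, fell by 0.43 (edgeR, BH-adjusted p = 1.24e-06). The other endoplasmic reticulum gene called was CRELD2, which fell by 0.40 (edgeR, BH-adjusted p = 0.0238). The CRELD2 call was lost without any 1 of 4 single sgRNAs. It also did not pass in cells not scored as G1, with at most 10% mitochondrial UMIs, after thinning or under the stricter rule. Of 14 heat shock chaperones 5 fell and 1 rose, with a median of -0.16. Of these 6 calls, 4 held without each sgRNA in turn, 2 in G1-scored cells and 2 with at most 10% mitochondrial UMIs. The gene that rose was CHORDC1, by 0.31 (edgeR, BH-adjusted p = 0.0112). Its call was lost without ATF4 sgRNA1, without CTCF sgRNA2 and in all 5 fits with fewer cells or UMIs. HSPA8, the constitutive HSC70, averaged 256 ± 24.2 CPM in ATF4 sgRNA cells and 364 ± 15.6 CPM in CTCF sgRNA cells, without overlap (log2 -0.52 ± 0.055, edgeR, BH-adjusted p = 6.48e-11), and HSP90AB1 fell by 0.22 (edgeR, BH-adjusted p = 0.000115). HSPA1A and HSPA1B are near-identical copies whose reads cannot be assigned with certainty.

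Antioxidant, aldo-keto reductase and pentose phosphate genes were lower in part, with 10 of 20 tested members down, 0 up and a median log2 fold change of -0.24. Of these 10 calls, 8 held without each sgRNA in turn, 7 in G1-scored cells, 7 with at most 10% mitochondrial UMIs and 5 after thinning. Calls that did not pass after thinning included AKR1C2, ME1, TXNRD1 and SRXN1 (edgeR, BH-adjusted p = 0.388, 0.574, 0.0736 and 0.377). The SRXN1 call was also lost without any 1 of 3 single sgRNAs. Genes of this list are known as targets of NRF2, the oxidant-responsive transcription factor. AKR1C1, which reduces steroids and lipid aldehydes, stood at 312 to 397.5 CPM (median 358) over ATF4 sgRNAs and at 553 to 728 CPM (median 597) over CTCF sgRNAs. The groups were far apart, with a log2 fold change of -0.87 ± 0.070 (edgeR, BH-adjusted p = 1.50e-15). AKR1C3 and AKR1B10 fell by 0.39 and 0.46 on the log2 scale (edgeR, BH-adjusted p = 2.76e-09 and 8.85e-09). AKR1C1, AKR1C2 and AKR1C3 are close paralogs, and reads shared between them leave the split among them uncertain.

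GCLM, the regulatory subunit of glutathione synthesis, averaged 164.5 ± 20.2 CPM in ATF4 sgRNA cells and 219 ± 39.8 CPM in CTCF sgRNA cells (log2 -0.40 ± 0.068, edgeR, BH-adjusted p = 2.46e-05). Without CTCF sgRNA3, where GCLM was highest, its log2 fold change was -0.35. TKT, the transketolase of the pentose phosphate route, averaged 861 ± 92.6 CPM and 1044 ± 64.4 CPM in ATF4 and CTCF sgRNA cells (log2 -0.31 ± 0.049, edgeR, BH-adjusted p = 6.79e-06). PRDX1, a peroxiredoxin, ran from 1393 to 1528 CPM over ATF4 sgRNAs and from 1711 to 2094 CPM over CTCF sgRNAs (log2 -0.34 ± 0.040, edgeR, BH-adjusted p = 2.76e-09), and is named after its values were seen. IDH1, the cytosolic isocitrate dehydrogenase that makes NADPH, lay at 20.7 to 42.97 CPM (median 35.2) over ATF4 sgRNAs and at 64.4 to 72.1 CPM (median 66.8) over CTCF sgRNAs. It was 1.87-fold lower, with no overlap (log2 -0.91 ± 0.097, edgeR, BH-adjusted p = 1.14e-10).

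Secreted and surface-lining genes of the airway epithelium were lower in ATF4 sgRNA cells. Of 8 tested antimicrobial and antiprotease genes, 4 fell, 0 rose and all 8 had a log2 fold change under 0, with a median of -0.46. CAMP, the precursor of the antimicrobial peptide LL-37, stood at 1.48 to 6.11 CPM (median 4.10) over ATF4 sgRNAs and at 12.8 to 19.5 CPM (median 16.3) over CTCF sgRNAs. The groups were apart, and non-targeting sgRNAs had 15.4 to 22.4 CPM. Its log2 fold change was -1.91 ± 0.216 (edgeR, BH-adjusted p = 7.96e-10), with -1.19 in G1-scored cells (BH-adjusted p = 0.0133) and -2.52 in cells not scored as G1 (BH-adjusted p = 1.29e-10). LCN2, the iron-siderophore binding lipocalin, averaged 549.5 ± 84.7 CPM and 789 ± 75.7 CPM in ATF4 and CTCF sgRNA cells, without overlap (log2 -0.52 ± 0.075, edgeR, BH-adjusted p = 7.82e-07). The antiproteases PI3 and SLPI fell by 0.82 and 0.31 on the log2 scale (edgeR, BH-adjusted p = 0.000384 and 0.00484), and neither passed under the stricter sgRNA rule (BH-adjusted p = 0.0560 and 0.133). SLPI also did not pass in G1-scored cells or with at most 10% mitochondrial UMIs. Without CTCF sgRNA3, where SLPI was highest, its log2 fold change was -0.23.

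S100P, a calcium-binding protein that is released from epithelial tumour cells, had the smallest adjusted p-value of the genes described here. It stood at 377 to 492 CPM (median 451) over ATF4 sgRNAs and at 664 to 782 CPM (median 687) over CTCF sgRNAs. No ATF4 sgRNA reached the CTCF range, and non-targeting sgRNAs had 671 to 692 CPM. The log2 fold change was -0.69 ± 0.050 (edgeR, BH-adjusted p = 1.54e-17). Among 12 tested S100 genes 3 fell and 1 rose, with a median of -0.02. S100A14 fell by 0.32 (edgeR, BH-adjusted p = 2.20e-08), S100A16 rose by 0.20 (edgeR, BH-adjusted p = 0.0105) but did not pass in any of the 5 fits with fewer cells or UMIs, and the call of S100A8 was lost without any 1 of 7 single sgRNAs.

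Of 19 tested keratins and epithelial genes, 3 fell: KRT8 and KRT19, simple-epithelium keratins, by 0.24 and 0.20 (edgeR, BH-adjusted p = 4.57e-06 and 0.00113), and ESRP1, the epithelial splicing factor, by 0.37 (edgeR, BH-adjusted p = 0.000269). ESRP1 did not pass in G1-scored cells (-0.31, BH-adjusted p = 0.146), under the stricter rule (-0.26, BH-adjusted p = 0.128) or after thinning (-0.14, BH-adjusted p = 0.617). KRT19 did not pass in cells not scored as G1 (-0.12, BH-adjusted p = 0.171) or under the stricter rule (BH-adjusted p = 0.113). KRT8 and KRT19 are 2 of the 6 epithelial markers, and their part in the other decreases was not tested. The metallothioneins MT1X and MT2A, which bind zinc and copper, fell by 0.48 and 0.30 (edgeR, BH-adjusted p = 3.03e-06 and 0.00450), among 5 tested with a median of -0.48, and MT2A did not pass in G1-scored cells (BH-adjusted p = 0.122). Without CTCF sgRNA3, where MT2A was highest, its log2 fold change was -0.24. Reads of the metallothioneins are hard to split from those of near-identical copies. ECM2, an extracellular matrix protein, had 2.95 to 7.12 CPM over ATF4 sgRNAs and 11.7 to 19.2 CPM over CTCF sgRNAs (log2 -1.38 ± 0.183, edgeR, BH-adjusted p = 6.70e-08). PIP5KL1, a lipid kinase-like scaffold, had 8.85 to 16.1 CPM and 19.97 to 31.5 CPM over ATF4 and CTCF sgRNAs (log2 -1.13 ± 0.154, edgeR, BH-adjusted p = 1.30e-07). TIMP4, a metalloproteinase inhibitor, and the long non-coding RNA LINC01133 fell by 1.05 and 1.22 on the log2 scale (edgeR, BH-adjusted p = 8.55e-05 and 1.63e-05). None of these 4 overlapped between the groups, and LINC01133 did not pass in cells not scored as G1 (-0.87, BH-adjusted p = 0.0559).

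**Figure D3:**
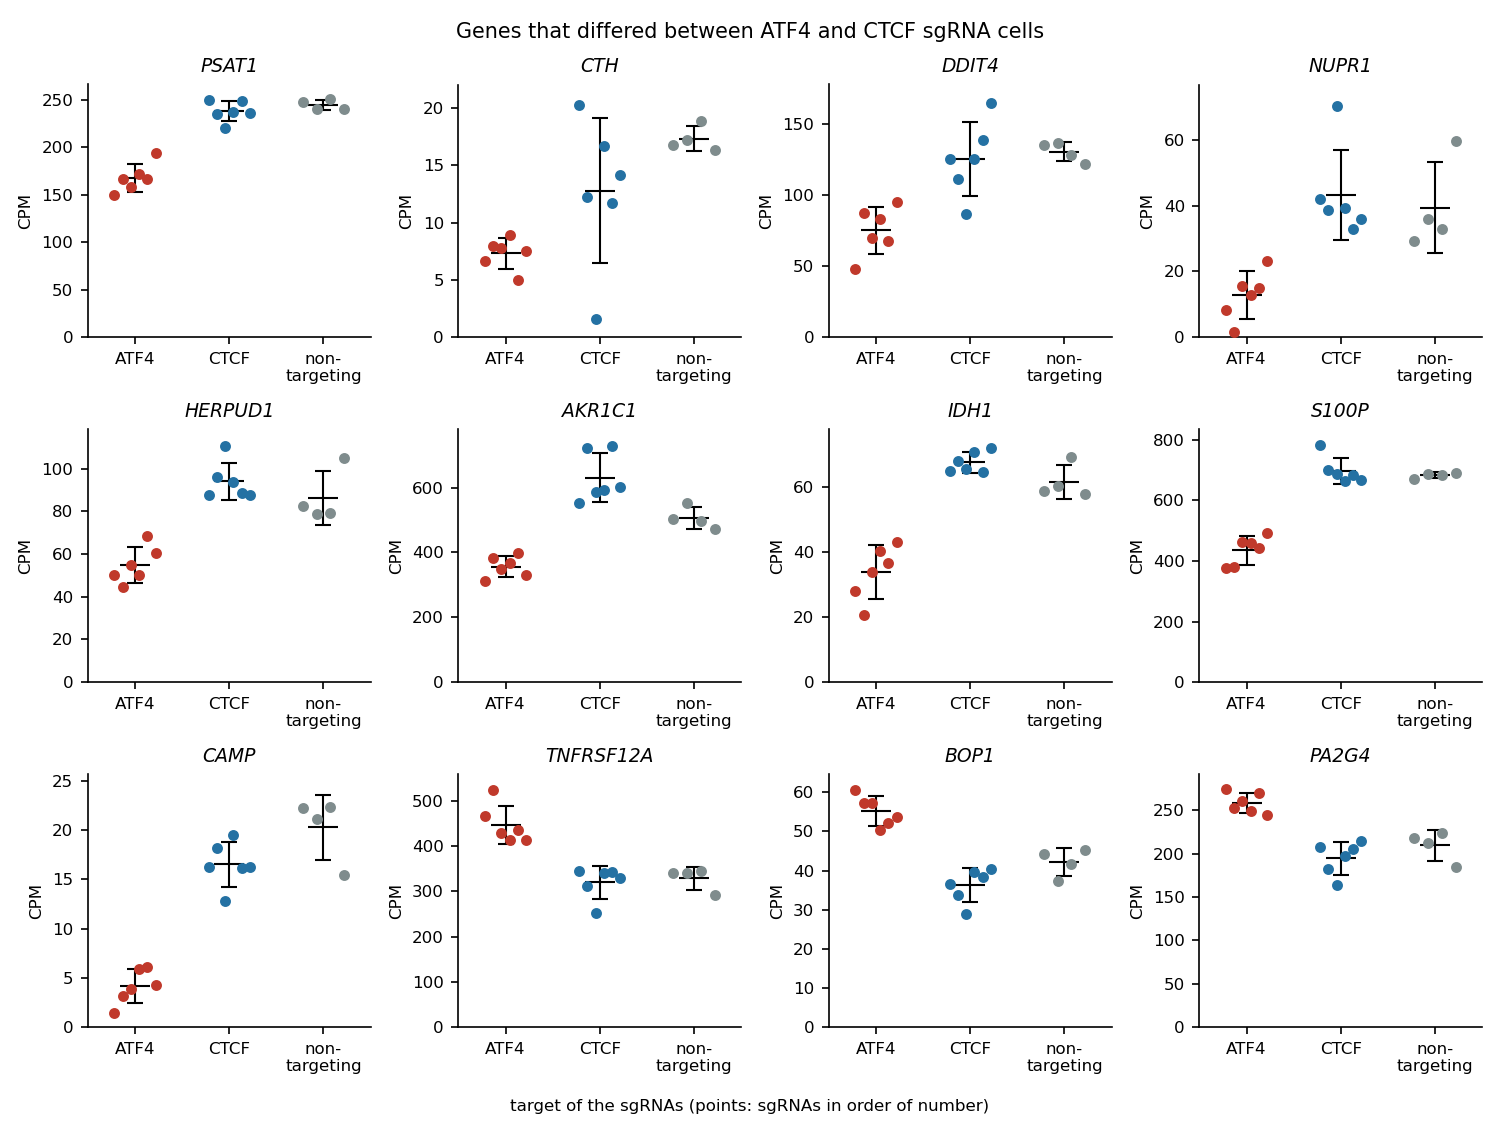
CPM of 12 genes for each of the 6 ATF4, 6 CTCF and 4 non-targeting sgRNAs, with the mean and SD of each group. S100P, IDH1, AKR1C1, CAMP and HERPUD1 show ATF4 sgRNAs below every CTCF sgRNA, and TNFRSF12A, BOP1 and PA2G4 show them above.

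The genes that were higher in ATF4 sgRNA cells included ribosome biogenesis and MYC-linked growth genes, of which 11 of 35 tested rose and 2 fell (background 2.71% and 3.17%), with a median log2 fold change of 0.16. BOP1, a processing factor of the large ribosomal subunit, had 50.4 to 60.5 CPM (median 55.5) over ATF4 sgRNAs and 28.8 to 40.3 CPM (median 37.5) over CTCF sgRNAs. PA2G4, a growth-regulated ribosome-binding protein, had 245 to 274 CPM (median 257) over ATF4 sgRNAs and 163 to 214 CPM (median 201) over CTCF sgRNAs. Neither gene overlapped between the groups. Their log2 fold changes were 0.52 ± 0.083 and 0.35 ± 0.053 (edgeR, BH-adjusted p = 7.12e-06 and 1.78e-06).

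GPATCH4, DKC1 and NOP56, a nucleolar protein and components of snoRNA particles, rose by 0.52, 0.35 and 0.28 on the log2 scale (edgeR, BH-adjusted p = 0.000273, 0.000444 and 0.000350). The members that fell were HSPD1, a mitochondrial chaperonin, by 0.16 (edgeR, BH-adjusted p = 0.00928) and GNL3, a nucleolar GTPase, by 0.18 (edgeR, BH-adjusted p = 0.0470). These calls moved with the cell cycle groups and with the sgRNAs: 1 of the 13 passed in G1-scored cells, 8 in cells not scored as G1, 5 after thinning and 8 without each sgRNA in turn. For BOP1 the log2 fold change was 0.29 in G1-scored cells (BH-adjusted p = 0.429) and 0.61 in the others (BH-adjusted p = 0.000104). The summed level of the 35 genes was 8798 to 9666 CPM over ATF4 sgRNAs and 7638 to 9166 CPM over CTCF sgRNAs, 8433 to 9166 CPM without CTCF sgRNA3.

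Outside these lists, TNFRSF12A, the receptor of the cytokine TWEAK, kept its call in all 22 alternatives and is named after its values were seen. It had 413 to 523 CPM (median 432) over ATF4 sgRNAs and 251 to 344 CPM (median 335) over CTCF sgRNAs. The groups did not overlap, and the log2 fold change was 0.39 ± 0.051 (edgeR, BH-adjusted p = 4.07e-08). Called genes were filtered on mean CPM, direction across ATF4 sgRNAs and share of UMIs in a single cell, as given with the processing. The 12 largest increases among those left had log2 fold changes of 0.58 to 0.78. They were AL161431.1, SNHG30, RGS7, WDR53, MOK, STAMBPL1, DKK1, AC010327.4, HSD17B8, FAM24B, ANKRD1 and DIO2. Some called genes that did not meet these filters had larger increases than some of the 12. DIO2, the deiodinase that activates thyroid hormone, averaged 24.3 ± 4.43 CPM in ATF4 sgRNA cells and 12.8 ± 6.79 CPM in CTCF sgRNA cells (log2 0.78 ± 0.165, edgeR, BH-adjusted p = 0.000889). ANKRD1, a transcriptional cofactor known as a YAP target, averaged 14.1 ± 3.44 CPM and 7.76 ± 1.91 CPM in ATF4 and CTCF sgRNA cells (log2 0.77 ± 0.192, edgeR, BH-adjusted p = 0.00615). DIO2 did not pass at a mitochondrial share of no more than 10% (0.40, BH-adjusted p = 0.547), ANKRD1 did not pass in G1-scored cells (0.71, BH-adjusted p = 0.360), in the other cells (0.76, BH-adjusted p = 0.0511), with at most 10% mitochondrial UMIs (0.94, BH-adjusted p = 0.0619) or after thinning (0.51, BH-adjusted p = 0.481). AL161431.1, SNHG30, STAMBPL1, HSD17B8 and FAM24B each did not pass in at least 3 of the 5 fits with fewer cells or UMIs, and RGS7, WDR53, MOK, DKK1 and AC010327.4 were each lost without at least 1 single sgRNA.

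Some of the largest differences were in genes whose level varied among the CTCF sgRNAs. SYCE3, a protein of the meiotic synaptonemal complex (ENSG00000217442, chr22:50551112-50562919), had 0.555 to 3.18 CPM over ATF4 sgRNAs, against 1.78, 22.6, 131, 12.9, 1.88 and 2.83 CPM for CTCF sgRNA1 to sgRNA6. CTCF sgRNA3, sgRNA2 and sgRNA4 were above all ATF4 sgRNAs and above all non-targeting sgRNAs (0.497 to 3.85 CPM), and the other 3 CTCF sgRNAs were within both ranges. The fitted log2 fold change was -3.48 ± 0.677 (edgeR, BH-adjusted p = 0.000269), and -2.66 without CTCF sgRNA3 (BH-adjusted p = 3.58e-05). Among cells thinned to 5000 UMIs, SYCE3 had a UMI in 7 of 854 ATF4 sgRNA cells (0.820%, exact 95% interval 0.330 to 1.68%), in 57 of 1168 CTCF sgRNA cells (4.88%, 3.72 to 6.28%) and in 0.434% of non-targeting cells. Among CTCF sgRNAs the share was 48.9% for sgRNA3 (22 of 45 cells, 33.7 to 64.2%), 9.30% for sgRNA2 and 4.94% for sgRNA4. The intervals cover counting error only.

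TTYH1, STAG1 and KRT16 followed the same order at their top, with CTCF sgRNA3 highest and CTCF sgRNA2 next. TTYH1, a membrane protein of the tweety family, had 17.6 to 23.9 CPM over ATF4 sgRNAs and 26.5 to 107 CPM over CTCF sgRNAs. STAG1, a subunit of the cohesin ring that CTCF stops, had 7.22 to 15.9 CPM over ATF4 sgRNAs and 14.9 to 62.4 CPM over CTCF sgRNAs. It was the 1 called gene among 17 tested cohesin and CTCF-related genes, whose median was -0.06. That count is near the 5.89% called among all genes tested and is not a result about this list. KRT16, a keratin of stressed epithelium, had 8.11 to 15.4 CPM over ATF4 sgRNAs and 19.8 to 70.4 CPM over CTCF sgRNAs.

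TTYH1 and KRT16 did not overlap between the groups. The log2 fold changes of TTYH1, STAG1 and KRT16 were -0.94 ± 0.165, -0.90 ± 0.190 and -1.52 ± 0.189 (edgeR, BH-adjusted p = 4.08e-05, 0.000902 and 1.05e-08), and -0.79, -0.76 and -1.44 without CTCF sgRNA3. STAG1 did not pass in G1-scored cells (BH-adjusted p = 0.147), at a mitochondrial share of no more than 10% (BH-adjusted p = 0.0743) or after thinning (BH-adjusted p = 0.172). NEAT1, the RNA scaffold of nuclear paraspeckles, had 758 to 978 CPM over ATF4 sgRNAs and 985 to 2017 CPM over CTCF sgRNAs, again highest in CTCF sgRNA3 (log2 -0.65 ± 0.082, edgeR, BH-adjusted p = 2.20e-08; -0.53 without it). EEF1A2, a translation elongation factor, ran the other way: 386 to 416 CPM over ATF4 sgRNAs and 394, 221, 186, 281, 368 and 375 CPM for CTCF sgRNA1 to sgRNA6. The fitted log2 fold change of EEF1A2 was 0.32 ± 0.072 (edgeR, BH-adjusted p = 0.00214; 0.27 without CTCF sgRNA3, BH-adjusted p = 0.00164), and it did not pass when ATF4 and CTCF sgRNAs were fitted alone (BH-adjusted p = 0.0600), in G1-scored cells (BH-adjusted p = 0.101) or with at most 10% mitochondrial UMIs (BH-adjusted p = 0.113). NEAT1 and EEF1A2 are named after their values were seen.

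**Figure D4:**
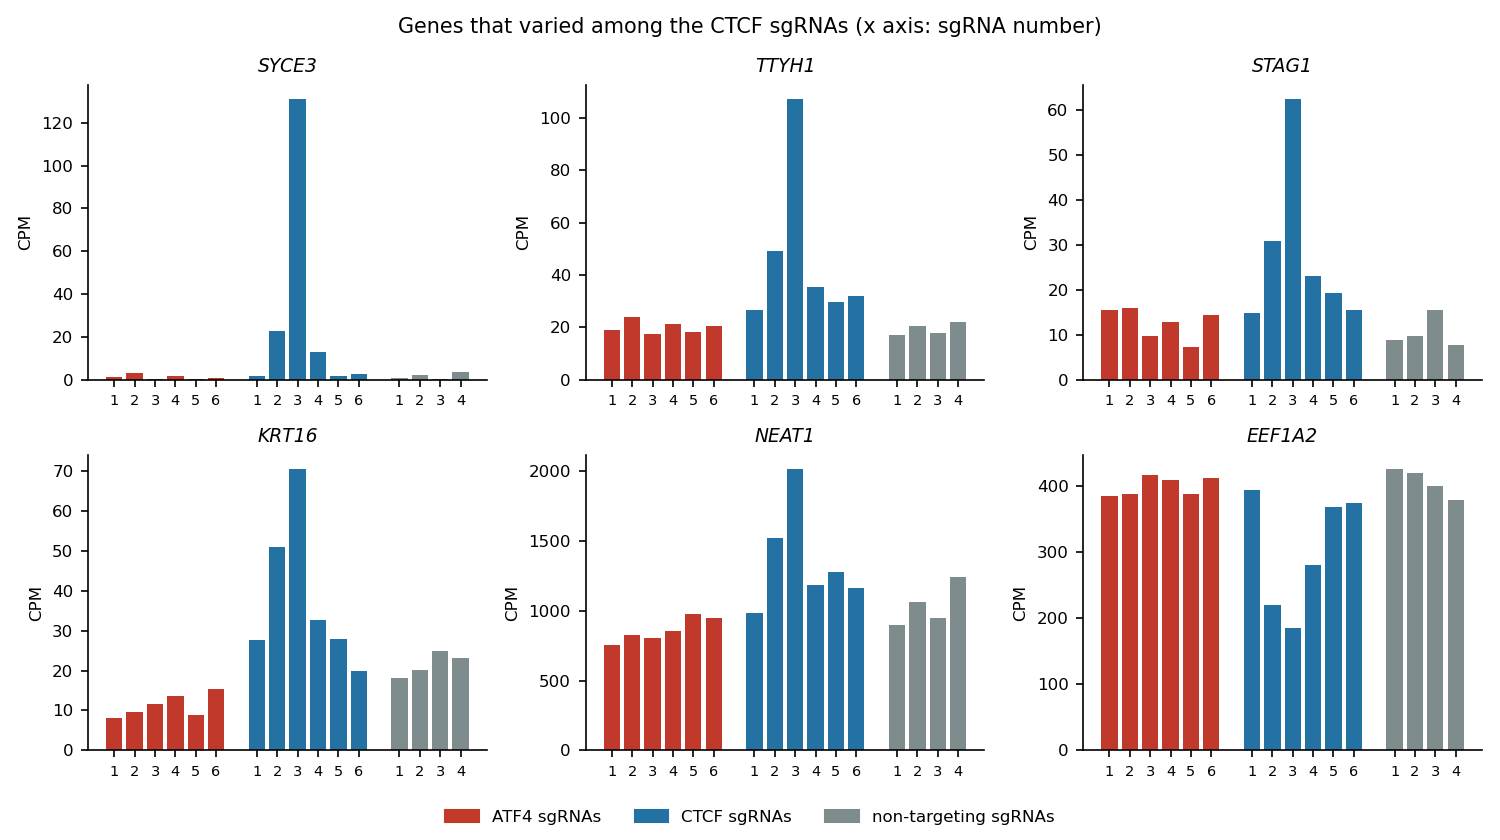
CPM of 6 genes for each ATF4, CTCF and non-targeting sgRNA, ordered by sgRNA number. CTCF sgRNA3 and sgRNA2 stand out in all 6 panels, with SYCE3 at 131 and 22.6 CPM and EEF1A2 at 186 and 221 CPM.

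Values against the non-targeting sgRNAs were set beside the direct contrast. These contrasts share sgRNAs with it and with each other, so their overlap is given as counts only. Of the 11570 genes, 203 (1.75%) passed for ATF4 against non-targeting sgRNAs, 70 of them higher (0.605%) and 133 lower (1.15%), and 3 (0.0259%) for CTCF against non-targeting sgRNAs, STAG1 and TTYH1 higher (0.0173% of genes) and EEF1A2 lower (0.00864%) in CTCF sgRNA cells. Of the 681 genes of the direct contrast, 168 passed for ATF4 against non-targeting sgRNAs, 3 for CTCF against non-targeting sgRNAs and 510 for neither. For 531 of the 681 the 2 log2 fold changes against non-targeting sgRNAs had opposite signs, and for 146 the CTCF side was the larger in size. The 681 were picked for a difference between the 2 targets, which by itself favours opposite signs. These 2 counts were not set beside all genes tested and are not a result about the targets. A threshold passed in the direct contrast and missed against 4 control sgRNAs does not show where a difference arose.

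S100P, CAMP, PSAT1, DDIT4 and ECM2 had log2 fold changes of -0.65, -2.21, -0.56, -0.81 and -1.41 for ATF4 over non-targeting sgRNAs, and of 0.04, -0.30, -0.03, -0.04 and -0.02 for CTCF over non-targeting sgRNAs. For SYCE3, TTYH1 and STAG1 these were -0.28, 0.07 and 0.22 for ATF4, and 3.19, 1.01 and 1.12 for CTCF. AKR1C1, NEAT1, CALB2 and KRT16 had opposite signs on the 2 sides. They had -0.55, -0.27, -0.42 and -0.80 for ATF4 over non-targeting sgRNAs, and 0.32, 0.37, 0.24 and 0.73 for CTCF over non-targeting sgRNAs. CALB2, the calcium buffer calretinin, averaged 128 ± 6.45 CPM in ATF4 sgRNA cells, 196 ± 18.4 CPM in CTCF sgRNA cells and 164 ± 24.8 CPM in non-targeting cells (log2 ATF4 over CTCF -0.66 ± 0.068, edgeR, BH-adjusted p = 4.09e-11), and is named after its values were seen.

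**Figure D5:**
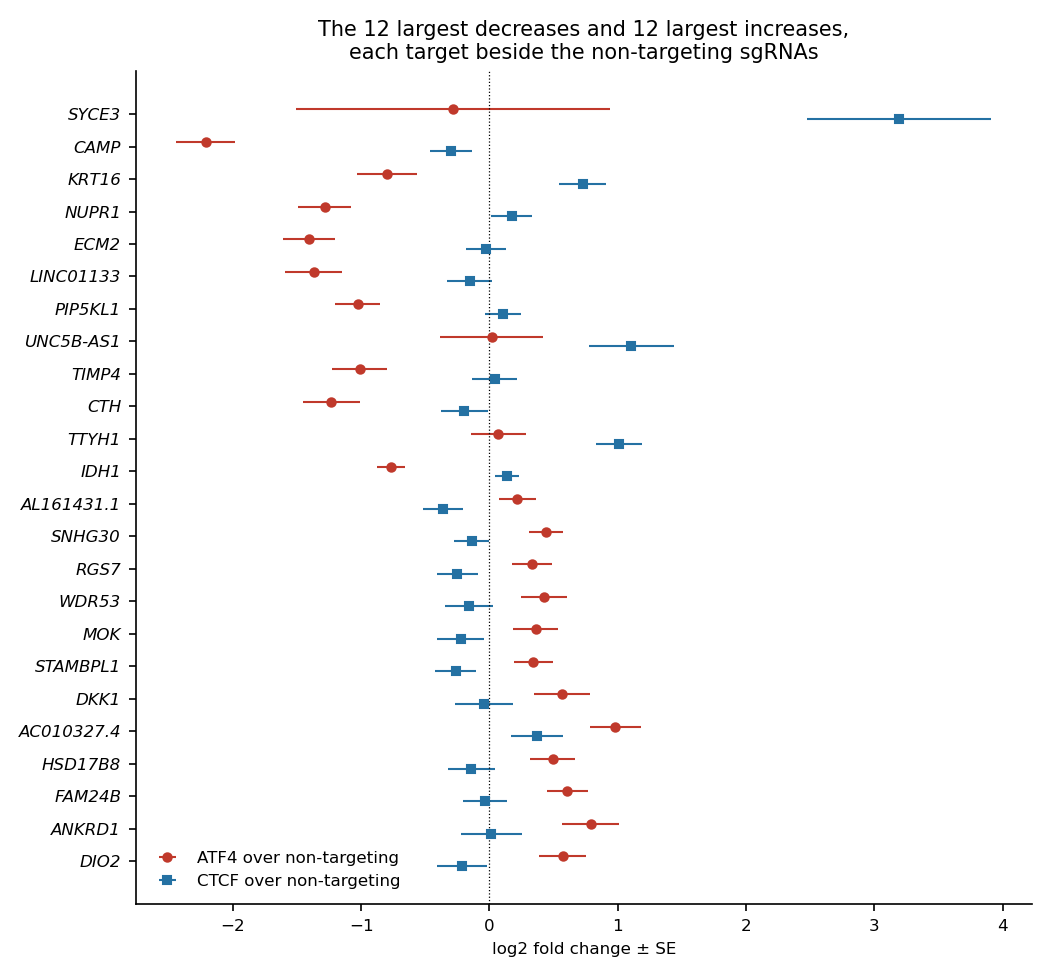
Log2 fold change ± SE over the non-targeting sgRNAs of 12 decreased and 12 increased genes. These had the largest changes in ATF4 over CTCF sgRNA cells among called genes that met the filters given with the processing. CAMP lies at -2.21 for ATF4 and -0.30 for CTCF, whereas SYCE3 lies at -0.28 for ATF4 and 3.19 for CTCF.

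Of the groups not yet described, some held 0 or 1 calls and others held several. Glycolysis enzymes (20 tested), interferon-induced genes (21), HLA class I genes (13), cholesterol synthesis genes (19), p53 pathway genes (15) and G1/S replication genes (24) had 0 calls each by edgeR and by DESeq2, with medians between -0.06 and 0.05. At an unadjusted p under 0.05 they had 3, 3, 0, 4, 2 and 2 genes. Of 25 G2/M genes, BIRC5, an inhibitor of apoptosis that marks mitosis, was the 1 call (0.33 ± 0.086, edgeR, BH-adjusted p = 0.00986), and it was lost without CTCF sgRNA4 and in all 5 fits with fewer cells or UMIs. Among 22 immediate early genes CCN1, a matrix protein, rose by 0.55 (edgeR, BH-adjusted p = 0.00873), lost without ATF4 sgRNA1, in both cell cycle fits, with at most 10% mitochondrial UMIs and after thinning. Of 14 NF-kB chemokines and cytokines 4 fell (background 3.17%), and 1 of the 4 passed without each sgRNA in turn. They included CCL20, a chemokine for dendritic and T cells, which fell by 1.84 (edgeR, BH-adjusted p = 0.00612). The CCL20 call was lost without CTCF sgRNA4 (-1.41) and in G1-scored cells. For 52 clustered protocadherin genes, a family whose promoter choice depends on CTCF in neurons, 0 passed the filter on low counts, so no change could be read. Of 7 tested imprinted genes, 2 fell and 1 rose (background 3.17% and 2.71%). GRB10, a receptor adaptor, fell by 0.60 (edgeR, BH-adjusted p = 0.00382). KCNQ1OT1, a long non-coding RNA, fell by 0.19 (edgeR, BH-adjusted p = 0.0297, lost without any 1 of 4 single sgRNAs). PHLDA2, a growth restrictor, rose by 0.26 (edgeR, BH-adjusted p = 0.00192). GRB10 did not pass in G1-scored cells (BH-adjusted p = 0.239) or after thinning (BH-adjusted p = 0.221). PHLDA2 did not pass in cells not scored as G1 (0.17, BH-adjusted p = 0.272), with at most 10% mitochondrial UMIs (BH-adjusted p = 0.150) or after thinning (BH-adjusted p = 0.139).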

How the data were processed

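The authors deposited raw UMI counts per gene and per sgRNA in each cell barcode. Per the file headers, Cell Ranger 6.1.2 made them, and per the submitters' processing notes the build was hg38. Strand use, filters before deposit and doublet removal were not given in the sources used here. An expression library and an sgRNA capture library of the same cells form 1 matrix with 136071789 gene UMIs and 158909 sgRNA UMIs. No doublet caller was run; the 80% rule removes cells with strong counts of several sgRNAs, and 4 ATF4 and 15 CTCF cells still held at least 5 UMIs of an sgRNA of another target. Counts were summed per sgRNA. All 34 sgRNAs with at least 20 cells entered 1 edgeR 4.0.16 quasi-likelihood fit (R 4.3.3; TMM scaling, edgeR's filter on low counts, biological coefficient of variation 4.64%), with the contrast ATF4 minus CTCF and Benjamini-Hochberg adjustment over 11570 genes at 0.05. The script was tested on simulated data. CPM are counts scaled to 1000000 gene UMIs of an sgRNA, without TMM factors. Scores of G1, S and G2/M were given by scanpy 1.11.5 after thinning cells to 5000 UMIs, which left out 5 ATF4 and 14 CTCF cells; the 2 fits by cell cycle score used scores from unthinned counts. Single values were compared by exact permutation over 6 and 6 sgRNAs, where the smallest p is 0.00216. Named genes were ATF4, CTCF, the 12 largest called increases and decreases with a mean of at least 10 CPM, all 6 ATF4 sgRNAs on 1 side of the CTCF mean and at most 20% of UMIs in 1 cell, and every called gene of 33 lists; the text describes those of main interest. Members and lists were chosen with earlier results of these data known. Of 36601 gene identifiers, 36366 had a symbol in the reference table. Alternatives were DESeq2 1.42.0, its size factors, no filter on low counts, ATF4 and CTCF sgRNAs alone, stricter (10 UMIs, 90%) and looser (3 UMIs, 60%) sgRNA rules, at most 10% mitochondrial UMIs, G1-scored or other cells, thinning, and leaving out each sgRNA.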

Additional observations from a re-analysis of the deposited data

Results flagged for a closer look

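In 34 of 252 groups of 6 sgRNAs, 1 sgRNA stood far from the other 5, by the size of its gap against the range of the group. Chance gives this in about 1 in 20 groups, and genes of the same sgRNA share its cells, so these are not independent. CTCF sgRNA3, with 48 cells, was the sgRNA in 26 of the 34.

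Several genes were far higher in CTCF sgRNA3 than in the other CTCF sgRNAs. SYCE3 stood at 131 CPM against at most 22.6 CPM in the others, TTYH1 at 107 against at most 49.0, STAG1 at 62.4 against at most 30.8 and UNC5B-AS1 at 51.2 against at most 15.2 CPM. NUPR1 stood at 70.4 CPM in CTCF sgRNA3 against at most 42.1 CPM in the others. The endoplasmic reticulum gene HERPUD1 and the chaperone gene HSPA1A stood at 110.4 and 160.1 CPM against at most 96.1 and 106 CPM. Antioxidant and secreted genes high in this sgRNA were AKR1C3 at 941 CPM against at most 814 CPM, GCLM at 298 against at most 214, SOD2 at 323 against at most 228, MT2A at 896 against at most 706 and SLPI at 616 against at most 413 CPM.

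Other genes were lower in CTCF sgRNA3 than in the other CTCF sgRNAs. Among amino acid genes, PHGDH stood at 397 CPM against at least 531 CPM in the others, SARS at 150.5 against at least 194, YARS at 68.8 against at least 116 and SLC3A2 at 202 against at least 282 CPM. TRIB3 stood at 89.6 CPM against at least 142 CPM, PPP1R15A at 49.6 against at least 69.3 and HSPA5 at 114 against at least 143 CPM. The growth genes DKC1 and ODC1 stood at 49.6 and 99.2 CPM against at least 87.6 and 123 CPM. AKR1C2 at 322 CPM, TKT at 919 CPM, TNFRSF12A at 251 CPM and RGS7 at 4.80 CPM were also lowest there, against at least 386, 1032, 311 and 12.99 CPM. Of its cells, 46.7% were scored as G1, against at least 59.9% for the other CTCF sgRNAs.

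Among the other CTCF sgRNAs, S100P was highest in sgRNA1 at 782 CPM against at most 701 CPM, TIMP4 in sgRNA2 at 31.9 against at most 20.5 CPM, and TNFAIP2 and WDR53 in sgRNA6 at 305 and 17.7 against at most 212 and 11.4 CPM. Among ATF4 sgRNAs, CRELD2 was lowest in sgRNA1 at 19.9 CPM against at least 23.9 CPM, PYCR1 was highest in sgRNA2 at 74.8 against at most 61.9, MYBBP1A in sgRNA4 at 24.6 against at most 18.6 and S100A8 in sgRNA5 at 24.4 against at most 10.97 CPM.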

How the results depend on the processing

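Of 681 genes that differed (314 higher, 367 lower), the count was 424 (188, 236) with ATF4 and CTCF sgRNAs fitted alone, 350 (156, 194) under the stricter sgRNA rule, 331 (139, 192) in cells not scored as G1, 253 (99, 154) after thinning, 192 (68, 124) with at most 10% mitochondrial UMIs and 181 (62, 119) in G1-scored cells. All but the first use fewer cells or UMIs. CTCF sgRNA3, with 17 G1-scored cells, was left out of the G1 fit alone, and ATF4 sgRNA2, with 12 cells, under the stricter rule alone. Beyond that the cause was not tested. Counts were 568 by DESeq2, 679 with its size factors, 659 without the filter on low counts and 790 under the looser rule. Without each sgRNA in turn they ranged from 471 (without ATF4 sgRNA1) to 726 (210 to 327 higher, 261 to 399 lower). Of 118 named genes that passed, 37 did so in every alternative that tested them and 82 without each sgRNA in turn. The ATF4 transcript stayed lower in all 22 alternatives. The CTCF transcript, with 0.02 in the main comparison, had log2 values of -0.26 in G1-scored cells, -0.19 with at most 10% mitochondrial UMIs and -0.038 to 0.081 without single sgRNAs, none past the threshold. The difference in mitochondrial share was 0.105 percentage points under the looser rule, 0.0432 with at most 10% mitochondrial UMIs and -0.334 to 0.0583 without single sgRNAs. The difference in median UMIs per cell was 573 to 959 without single sgRNAs and lost its unadjusted p under 0.05 in 8 of 12 cases. The G1 share differed by -5.02 to -0.937 percentage points without single sgRNAs. No paired analysis was possible because equal sgRNA numbers name different sgRNAs against different genes in 1 pool. Genes under about 10 CPM rest on few UMIs in the smallest sgRNAs.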
